A study of Rattus norvegicus with 13 samples.

Results

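Transcripts of 3 growth factor systems that link tumour cells and stroma were followed: PDGF ligands and receptors (Pdgfa, Pdgfc, Pdgfd, Pdgfra, Pdgfrb), Hgf and its receptor Met, and Gas6 and its receptor Axl. The genes were taken by symbol, all 9 were found among the 14217 genes measured, and where several probe sets named a gene, that of highest mean value over the 13 arrays was used. There were 5 ligands and 4 receptors, with 13 probe sets in all. Single-colour Affymetrix rat arrays measured RNA from intrahepatic cholangiocarcinoma, a cancer of the bile ducts inside the liver, and from cell lines made from such tumours. The tumours (n = 4) grew in Fischer 344 rats after BDEsp cells, spontaneously transformed BDE1 rat cholangiocytes of low malignant grade, were placed in the bile duct. An array of epithelial cancer cells in co-culture with fibroblastic cells came with 3 arrays of the epithelial line alone (BDEsp-TDEH10, clone H10). An array of fibroblastic cells in co-culture with epithelial cells came with 4 arrays of the fibroblastic line alone (BDEsp-TDFE4, clone E4), which is α-SMA positive and made from cancer-associated fibroblasts. Each line is a single clone, and all cultures were in rat tail type I collagen gel. The labels name no drug, transgene or knockout in any group. The fibroblast plating density varied among co-cultures, and the sources used here do not say which density each array had. Separate cultures behind replicate arrays are not stated in the labels, so a p-value reflects array-to-array spread, which may be technical.

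PDGFs are dimeric ligands of the receptor tyrosine kinases PDGFRα and PDGFRβ, which mesenchymal cells carry and which drive their growth and migration. PDGF-A and PDGF-C chains act mainly through PDGFRα and PDGF-D through PDGFRβ, and in human cholangiocarcinoma PDGF-D from the cancer cells is known to attract fibroblasts. HGF is typically secreted by mesenchymal cells, stellate cells of the liver among them, and binds Met on epithelial cells. Gas6 is a vitamin K-dependent ligand of the TAM receptors Tyro3, Axl and Mertk and binds Axl most tightly.

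The tissue and cell labels were set against marker genes before the members were read. Values are RMA values on the log2 scale throughout. The mean over 6 epithelial markers (keratins, Epcam and Cdh1) ran over 12.44 to 13.01 in tumours. Lines alone had 13.17 to 13.41 (epithelial) and 4.50 to 5.19 (fibroblastic). The mean over 7 fibroblastic markers (Acta2, collagens, Vim, Postn and Thy1) ran over 11.27 to 11.69 in tumours. Lines alone had 5.70 to 5.92 (epithelial) and 12.70 to 13.38 (fibroblastic). Both co-culture arrays held both sets at high values: the epithelial markers averaged 12.70 on the array labelled epithelial co-culture and 12.73 on that labelled fibroblastic co-culture, and the fibroblastic markers 11.72 and 11.88. The sources used here do not say whether the cells were separated before RNA extraction, so these arrays are named below by their labels, and a difference from a line grown alone cannot be told apart from the presence of the other line. Tumours also held markers of cells absent from the cultures. The macrophage markers averaged 9.20 to 9.52 in tumours, against epithelial-line values of 4.86 to 5.04 and fibroblastic-line values of 4.65 to 4.86. The tumour ranges were 6.48 to 7.22 for endothelial, 7.15 to 7.60 for lymphocyte and 5.67 to 13.75 for hepatocyte markers, and no line array passed 5.16 for any of these lists. Albumin (Alb) separated the tumours, with 14.51, 7.50, 13.94 and 14.46 in tumours 1 to 4.

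**Figure D1:**
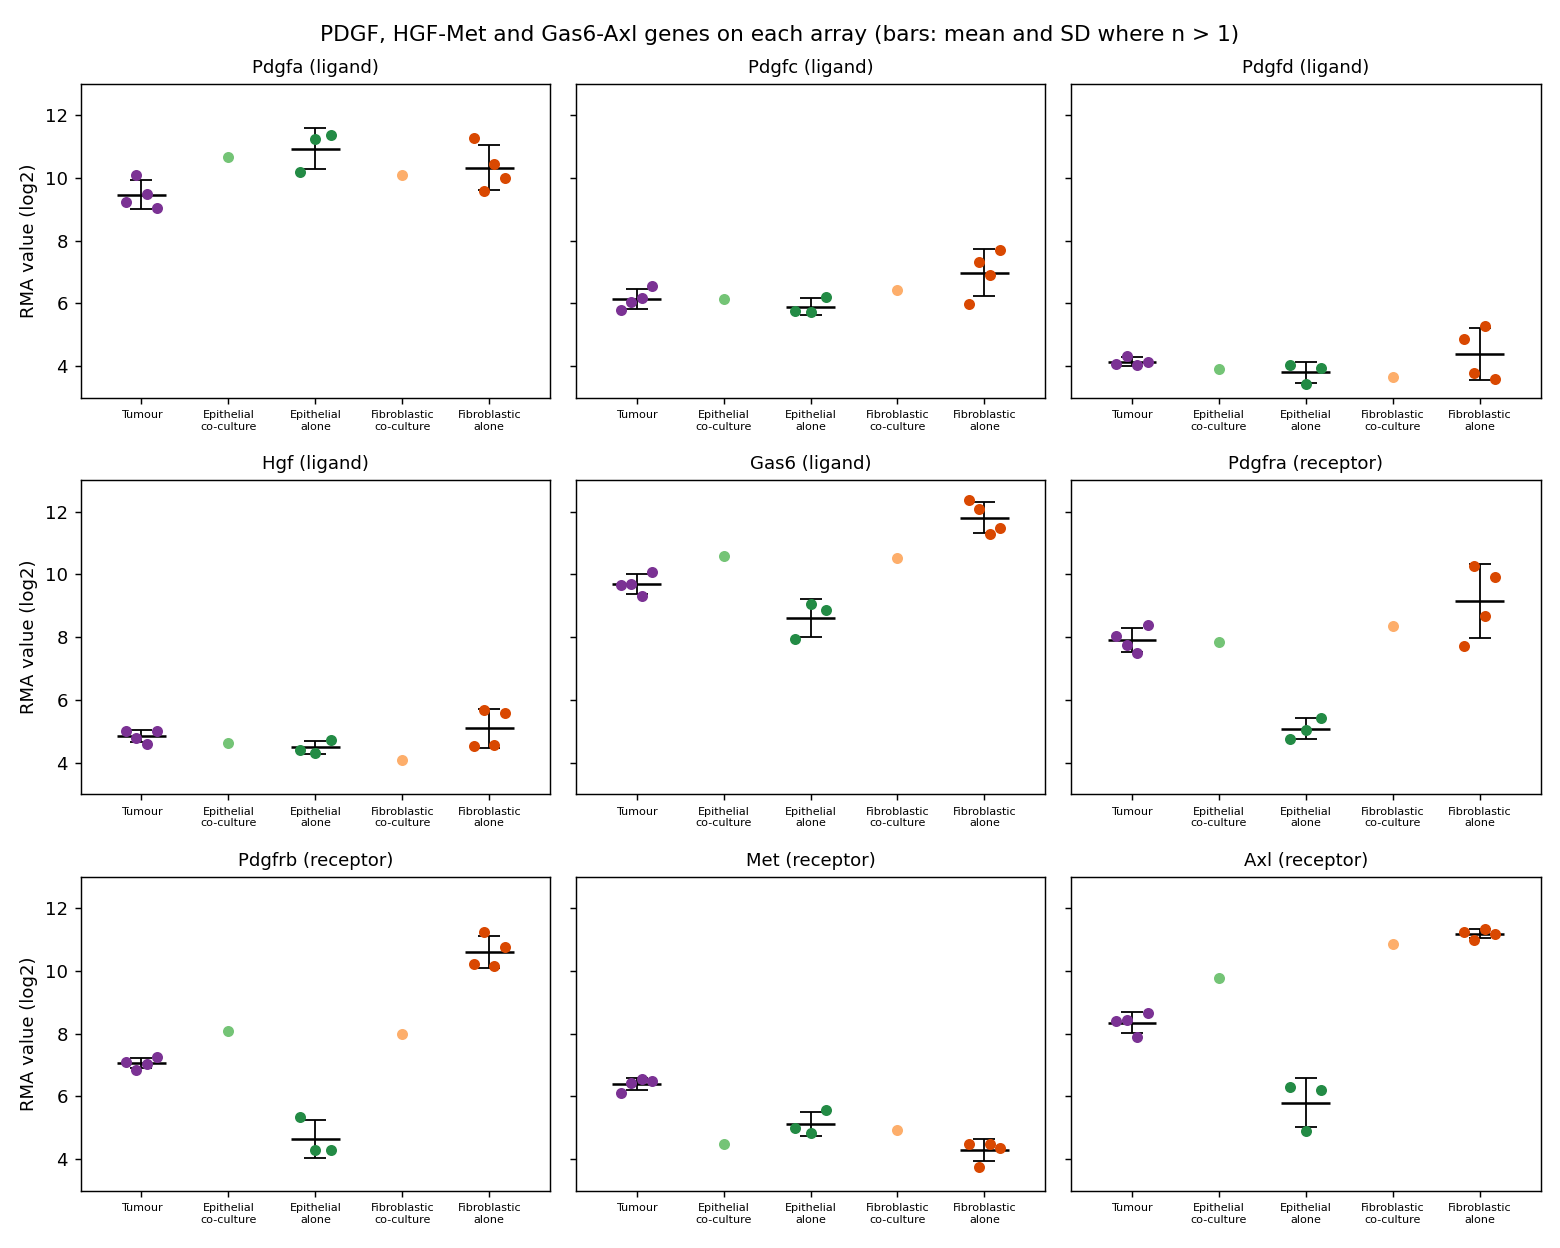
RMA values (log2, vertical axis) of the 5 ligands and 4 receptors on each of the 13 arrays, with a point for each array and bars for mean and SD where a group has more than 1 array. By group mean, Gas6, Pdgfra, Pdgfrb and Axl lie between the lines in tumours, though Pdgfra in tumours overlaps the fibroblastic line. Met is higher in tumours than in either line, and Pdgfd and Hgf stay at low values in every group.

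By the probe sets that stand for the genes, tumours held more receptor message than the epithelial line and, Met apart, less than the fibroblastic line. Of the single Pdgfrb probe sets, only the one that stands for the gene called its rise over the epithelial line, and the mean of its probe sets called it too. The Pdgfra call against the fibroblastic line was lost without most single arrays, and Met was at low values in every group. Against the epithelial line, 5 members were higher (Gas6, Pdgfra, Pdgfrb, Met, Axl) and 1 was lower (Pdgfa) at adjusted p under 0.05, the threshold used throughout. Over all genes 18.9% were called higher and 33.2% lower there, 52.1% in either direction, and the median difference was 1.07 over the members and -0.17 over all genes. Against the fibroblastic line, 1 member was higher (Met) and 5 were lower (Pdgfc, Gas6, Pdgfra, Pdgfrb, Axl), where 27.3% of all genes were higher and 33.5% lower, 60.9% in either direction. The medians were -0.85 over the members and -0.07 over all genes. With each array centred on its median, 3751 genes were higher and 3431 lower in tumours than in the epithelial line, in place of 2685 and 4722. In tumours against the fibroblastic line 5095 were higher and 3821 lower, in place of 3888 and 4764. The medians over all genes were then 0.03 and 0.12, and the members called in each direction were 5 and 1, and 1 and 3, with Pdgfc and Pdgfra no longer called against the fibroblastic line. Gas6, Pdgfra, Pdgfrb and Axl were called above the epithelial and below the fibroblastic line, a position that 3.78% of all genes held. Met was the 1 member above both lines, as were 12% of all genes, and 0 members were below both lines, as were 17.9%. The tests were limma's moderated test, two-sided, with Benjamini-Hochberg adjustment over all 14217 genes.

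The lines differed chiefly in the receptors of the stromal side. The epithelial line was lower than the fibroblastic line in 4 members (Gas6, Pdgfra, Pdgfrb, Axl) and higher in 1 (Met). Of all genes 20.9% were higher and 16.6% lower, 37.4% in either direction. The median difference was -1.08 over the members and 0.11 over all genes. In bulk RNA, fewer cells of a type and less RNA per cell cannot be told apart, which holds for every tumour and co-culture value here.

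Axl, the main Gas6 receptor, was high in the fibroblastic line and low in the epithelial line. Its values were 8.41, 8.43, 7.88 and 8.66 in tumours, 9.76 on the epithelial co-culture array, 6.30, 4.89 and 6.22 in the epithelial line, 10.87 on the fibroblastic co-culture array and 11.24, 10.98, 11.33 and 11.17 in the fibroblastic line. The 4 fibroblastic arrays were the highest, the 3 epithelial arrays the lowest, and no groups overlapped. Axl averaged 8.35 ± 0.33 in tumours (SD, n = 4), 5.81 ± 0.79 in the epithelial line (n = 3) and 11.18 ± 0.15 in the fibroblastic line (n = 4). Tumours were higher than the epithelial line by 2.54 (SE 0.31, limma adjusted p = 0.000121). They fell by 2.83 against the fibroblastic line (SE 0.29, limma adjusted p = 1.5e-05). The epithelial line minus the fibroblastic line was -5.37 (SE 0.33, limma adjusted p = 8.61e-06).

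Gas6, the ligand, was highest in the same line as its receptor. Gas6 values were 9.65, 9.69, 9.31 and 10.09 in tumours, 10.58 on the epithelial co-culture array, 7.93, 9.04 and 8.88 in the epithelial line, 10.52 on the fibroblastic co-culture array and 12.36, 12.09, 11.30 and 11.49 in the fibroblastic line. The groups ran from fibroblastic alone through both co-culture arrays and the tumours to epithelial alone, without overlap, and the co-culture arrays were neighbours that differed by 0.06. That order depended on the probe set. By 1369735_at the tumours (7.23 to 7.58) stood above the co-culture arrays (6.69 and 6.52), and by 1392784_at tumours and epithelial arrays overlapped. Means were 9.68 ± 0.32 in tumours, 8.62 ± 0.60 in the epithelial line and 11.81 ± 0.50 in the fibroblastic line (SD, n = 4, 3 and 4). Gas6 was higher in tumours than in the epithelial line by 1.07 (SE 0.32, limma adjusted p = 0.0186). That call was lost without tumour 4 (0.93, adjusted p = 0.0506) and without epithelial array 1 (0.72, adjusted p = 0.084). Of the other Gas6 probe sets, 1392784_at gave 0.23, and by 1369735_at the means were 7.44 in tumours and 5.99 in the epithelial line. Gas6 in tumours fell by 2.13 (SE 0.30, limma adjusted p = 0.000147) against the fibroblastic line. The epithelial minus fibroblastic difference was -3.19 (SE 0.35, limma adjusted p = 0.000231).

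Because Gas6, Axl and Pdgfra were all called between the lines in tumours, the RefSeq windows around their starts are shown for reference, from 250 bases before the start to 50 after it on build GRCr8. Of the 9 members, 8 matched an entry by symbol. Each window is 300 bases, written 5′ to 3′ on the gene's strand. Gas6 lies at chr16:82747426-82747725 (plus strand), Axl at chr1:90423960-90424259 (minus strand) and Pdgfra at chr14:33408467-33408766 (minus strand). Capitals mark GGGCGG (the GC box) and TGANTCA (the AP-1 motif) on either strand.
Gas6: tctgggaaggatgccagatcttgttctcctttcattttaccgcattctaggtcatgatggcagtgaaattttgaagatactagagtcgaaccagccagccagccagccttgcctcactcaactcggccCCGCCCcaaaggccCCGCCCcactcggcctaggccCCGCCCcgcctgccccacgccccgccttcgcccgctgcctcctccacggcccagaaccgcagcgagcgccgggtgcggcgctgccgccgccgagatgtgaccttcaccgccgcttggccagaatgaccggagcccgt
Axl: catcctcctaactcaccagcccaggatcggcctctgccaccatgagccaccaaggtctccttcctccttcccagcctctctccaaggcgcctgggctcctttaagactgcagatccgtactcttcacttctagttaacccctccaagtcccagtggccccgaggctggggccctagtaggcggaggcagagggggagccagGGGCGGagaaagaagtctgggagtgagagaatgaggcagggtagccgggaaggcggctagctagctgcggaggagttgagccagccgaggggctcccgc
Pdgfra: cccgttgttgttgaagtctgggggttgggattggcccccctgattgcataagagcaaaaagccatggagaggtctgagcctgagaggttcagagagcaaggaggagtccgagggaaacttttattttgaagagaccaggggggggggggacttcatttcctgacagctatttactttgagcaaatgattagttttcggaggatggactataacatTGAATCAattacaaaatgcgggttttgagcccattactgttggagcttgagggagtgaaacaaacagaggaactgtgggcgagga
The Gas6 window held 3 GC boxes and the Axl window 1. The Pdgfra window held 0 GC boxes and 1 AP-1 match. Among the other members, the Pdgfa and Pdgfd windows each held 1 GC box, and none of the 8 windows held TATAAA. No match overlapped another. Of 33469 RefSeq windows of this length, 33.1% held a GC box, 7.33% an AP-1 match and 14.2% TATAAA. These matches describe the letters and say nothing of binding.

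Pdgfrb, the receptor of PDGF-B and PDGF-D and a marker of mural cells and fibroblasts, was high in the fibroblastic line and at low values in the epithelial line. Its values were 7.10, 6.85, 7.04 and 7.25 in tumours, 8.07 on the epithelial co-culture array, 5.33, 4.30 and 4.29 in the epithelial line, 8.00 on the fibroblastic co-culture array and 10.23, 11.25, 10.16 and 10.77 in the fibroblastic line. No groups overlapped, and the 4 tumours lay closer together than the arrays of either line. The means were 7.06 ± 0.17 in tumours, 4.64 ± 0.60 in the epithelial line and 10.60 ± 0.51 in the fibroblastic line (SD, n = 4, 3 and 4). Tumours exceeded the epithelial line by 2.42 (SE 0.31, limma adjusted p = 0.000146). They fell by 3.54 against the fibroblastic line (SE 0.28, limma adjusted p = 2.5e-06), and the epithelial line fell by 5.96 (SE 0.35, limma adjusted p = 6.53e-06). The other Pdgfrb probe sets gave 0.36 and 0.85 for tumour minus epithelial, neither of them called.

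Pdgfra, the receptor for the A and C chains, was also a fibroblastic-line transcript but varied within that line. Its values were 8.04, 7.76, 7.49 and 8.39 in tumours, 7.86 on the epithelial co-culture array, 4.76, 5.05 and 5.44 in the epithelial line, 8.37 on the fibroblastic co-culture array and 7.72, 10.28, 8.67 and 9.92 in the fibroblastic line. Every tumour stood above every epithelial array, while fibroblastic array 1 lay among the tumours. The mean was 7.92 ± 0.39 in tumours, 5.09 ± 0.34 in the epithelial line and 9.15 ± 1.17 in the fibroblastic line (SD, n = 4, 3 and 4). Pdgfra was higher in tumours than in the epithelial line by 2.83 (SE 0.52, limma adjusted p = 0.00131), and the epithelial minus fibroblastic difference was -4.06 (SE 0.58, limma adjusted p = 0.00102). The tumour value fell by 1.22 against the fibroblastic line (SE 0.48, limma adjusted p = 0.0475). That last call was lost without 8 of the 11 arrays taken singly, with adjusted p up to 0.129, and without fibroblastic arrays 2 and 4 the difference was -0.27 (adjusted p = 0.502).

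Fibroblastic arrays 2 and 4 stood apart from 1 and 3 in several members. They held the highest Pdgfra (10.28 and 9.92), Pdgfrb (11.25 and 10.77), Pdgfc (7.31 and 7.71) and Hgf (5.67 and 5.59) of that line. They also held the lowest Pdgfd (3.77 and 3.60) and Pdgfa (9.59 and 10.01). Acta2, the α-SMA gene, was 12.13, 9.29, 12.04 and 10.29 in fibroblastic arrays 1 to 4. The actin control probe sets differed between their 3′ and 5′ ends by 1.72, 2.65, 1.05 and 2.01 on these arrays. The same difference was 0.61 to 0.75 over tumours and 0.86 to 1.47 over epithelial arrays. The part of RNA quality in these values was not tested.

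Of the PDGF ligands, Pdgfa, a ligand of PDGFRα, was the one that differed between tumours and the epithelial line. Pdgfa values were 9.24, 10.09, 9.50 and 9.04 in tumours, 10.67 on the epithelial co-culture array, 10.17, 11.25 and 11.38 in the epithelial line, 10.10 on the fibroblastic co-culture array and 11.26, 9.59, 10.43 and 10.01 in the fibroblastic line. The lines overlapped, and the tumours lay below every epithelial array. Pdgfa averaged 9.47 ± 0.46 in tumours, 10.94 ± 0.66 in the epithelial line and 10.32 ± 0.72 in the fibroblastic line (SD, n = 4, 3 and 4). Tumours fell by 1.47 against the epithelial line (SE 0.42, limma adjusted p = 0.0138). That call was lost without epithelial array 2 (adjusted p = 0.0525) or 3 (adjusted p = 0.0548). The tumour minus fibroblastic difference was -0.85 (SE 0.39, limma adjusted p = 0.0791), called without tumour 2 (adjusted p = 0.0432) or fibroblastic array 2 (adjusted p = 0.0349). Between the lines the difference was 0.61 (SE 0.44, adjusted p = 0.311).

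Pdgfc, the other PDGFRα ligand, had 5.80, 6.03, 6.17 and 6.54 in tumours, 6.15 on the epithelial co-culture array, 5.75, 5.72 and 6.22 in the epithelial line, 6.44 on the fibroblastic co-culture array and 5.97, 7.31, 6.90 and 7.71 in the fibroblastic line. Tumours and the epithelial line overlapped, and so did tumours and fibroblastic array 1. Pdgfc was lower in tumours than in the fibroblastic line by limma, with a difference of -0.84 (SE 0.33, adjusted p = 0.0446). That call was lost on leaving out 9 of the 11 arrays singly (adjusted p up to 0.122) and without fibroblastic arrays 2 and 4 (-0.30, adjusted p = 0.405). The epithelial minus fibroblastic difference was -1.08 (SE 0.38, adjusted p = 0.0596) and was called without fibroblastic array 1 (-1.41, adjusted p = 0.00527).

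Pdgfd, the PDGFRβ ligand, and Hgf stayed low on every array. Values without the transcript were gauged from 17 hepatocyte, lymphocyte and macrophage markers on the 9 line arrays, where such cells were not plated. These markers ran from 3.59 to 6.74 with a median of 4.82 and a 95% quantile of 6.11. That is a rough guide, since probe sets differ in background. Outside fibroblastic arrays 2, 3 and 4, every Pdgfc value lay within the range of these markers too. Pdgfd had 4.08, 4.34, 4.05 and 4.13 in tumours, 3.91 on the epithelial co-culture array, 4.05, 3.43 and 3.93 in the epithelial line, 3.65 on the fibroblastic co-culture array and 4.86, 3.77, 5.29 and 3.60 in the fibroblastic line. Fibroblastic arrays 1 and 3 were the high ones, and the range of that line held every tumour value. Hgf, the Met ligand, had 5.00, 4.79, 4.60 and 5.00 in tumours, 4.63 on the epithelial co-culture array, 4.42, 4.32 and 4.73 in the epithelial line, 4.08 on the fibroblastic co-culture array and 4.54, 5.67, 4.57 and 5.59 in the fibroblastic line. Fibroblastic arrays 2 and 4 were the high ones for Hgf. Neither ligand was called in any of the 3 comparisons. The Hgf differences were 0.35 for tumour minus epithelial (limma adjusted p = 0.324), -0.25 for tumour minus fibroblastic (adjusted p = 0.443) and -0.60 for epithelial minus fibroblastic (adjusted p = 0.187). Those of Pdgfd were 0.35 (adjusted p = 0.452), -0.23 (adjusted p = 0.583) and -0.57 (adjusted p = 0.331). Without fibroblastic arrays 2 and 4 Pdgfd was called between the lines (-1.27, adjusted p = 0.00994) and in tumours against the fibroblastic line (-0.92, adjusted p = 0.00516).

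Met, the HGF receptor of epithelial cells and hepatocytes, was higher in the epithelial than in the fibroblastic line and higher still in tumours. It had 6.10, 6.44, 6.56 and 6.49 in tumours, 4.50 on the epithelial co-culture array, 4.98, 4.83 and 5.57 in the epithelial line, 4.93 on the fibroblastic co-culture array and 4.50, 3.76, 4.50 and 4.37 in the fibroblastic line. All tumours lay above all line arrays, and all epithelial arrays above all fibroblastic ones. Yet every value, in tumours too, lay within the 3.59 to 6.74 of the markers of unplated cells. The 6.74 was Cd68 on the epithelial co-culture array, and the 95% quantile of those markers was 6.11. Tumours 2 to 4 lay above that quantile for Met, and tumour 1 and all line arrays did not. Met averaged 6.40 ± 0.21 in tumours, 5.12 ± 0.39 in the epithelial line and 4.28 ± 0.36 in the fibroblastic line (SD, n = 4, 3 and 4). Tumours were higher than the epithelial line by 1.27 (SE 0.23, limma adjusted p = 0.00114) and than the fibroblastic line by 2.12 (SE 0.21, limma adjusted p = 1.27e-05). Tumour 2, with the lowest albumin (7.50), had a Met value of 6.44, within the range of the other tumours. The part of hepatocytes in the tumour Met values was not tested. The epithelial line was higher than the fibroblastic line by 0.84 (SE 0.25, limma adjusted p = 0.0318), a call lost when epithelial array 1 (adjusted p = 0.0593) or 3 (adjusted p = 0.105) was left out, and when fibroblastic array 2 (adjusted p = 0.0535) or 4 (adjusted p = 0.0591) was.

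**Figure D2:**
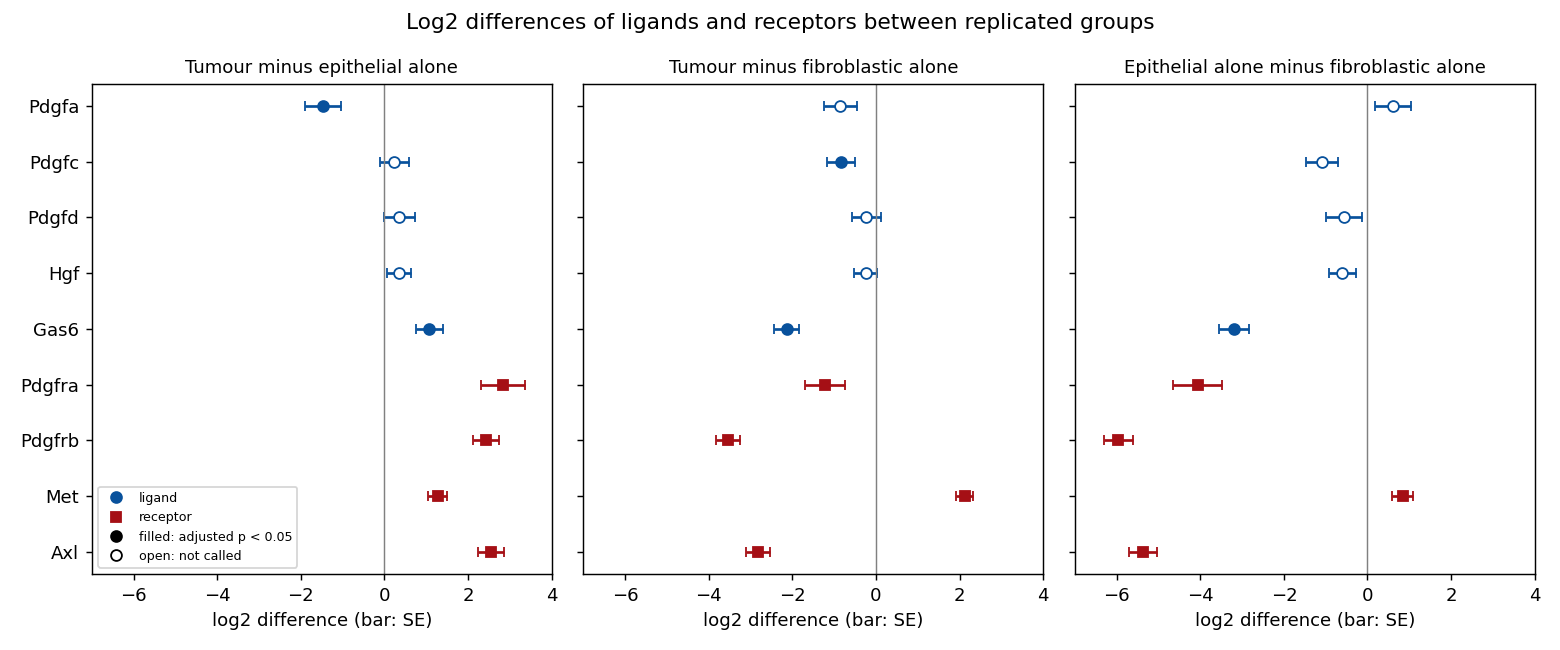
Log2 differences (horizontal axis, bar: SE) of each ligand (circles) and receptor (squares) for tumour minus epithelial alone, tumour minus fibroblastic alone and epithelial alone minus fibroblastic alone. Filled symbols passed adjusted p under 0.05: 6, 6 and 5 of 9 members, and Met is filled and to the right of 0 in all 3 panels.

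Markers of other cell types moved with these tumour comparisons. All 7 macrophage, all 6 hepatocyte, 4 of 5 endothelial and 3 of 4 lymphocyte markers measured were called higher in tumours than in each line. Of all genes 12% were called above both lines. Of 5 pericyte or stellate markers, 4 were higher in tumours than in the epithelial line (all genes 18.9%). Against the fibroblastic line 2 were higher and 2 lower (all genes 27.3% and 33.5%). The mean of these markers was 6.44 to 7.41 in tumours, with 4.84 to 5.18 for epithelial arrays and 5.88 to 6.62 for fibroblastic arrays. Rgs5, a pericyte gene, was 9.81, 8.61, 8.37 and 9.40 in tumours and between 3.97 and 4.75 on all line arrays grown alone. The part of these cells in the tumour values of the members was not tested.

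The 4 members that the fibroblastic line held at least 8-fold above the epithelial line (Gas6, Axl, Pdgfra, Pdgfrb) could be placed between the lines on the linear scale, with 0% for the epithelial mean and 100% for the fibroblastic mean. Axl lay at 12.3%, 12.6%, 7.74% and 15.2% in tumours 1 to 4. Gas6 lay at 11.6%, 12.3%, 6.63% and 20.1%. Tumour 3 was lowest and tumour 4 highest for both. Pdgfra lay higher, at 34.1%, 27.1%, 21.6% and 44.9%, and Pdgfrb lower, at 6.90%, 5.54%, 6.55% and 7.86%. The median of the 531 genes with such a gap was 10.9%, 10.6%, 9.07% and 14.1%. Pdgfra lay above the upper quartile of those genes in each tumour (22.6%, 21.3%, 19.8% and 30.2%), and Pdgfrb lay between the lower quartile and the median by the probe set that stands for it. By the other probe sets Pdgfrb lay at 1.11% to 2.02% (1391394_s_at) and 3.83% to 6.47% (1379211_at) in tumours, and Gas6 at 5.00% to 7.46% (1369735_at) and -2.04% to 16.4% (1392784_at). The fibroblastic markers in tumours lay at 45.5% to 63.9% (Col3a1), 34.5% to 46.0% (Col1a2), 33.9% to 48.4% (Acta2) and 31.0% to 37.8% (Vim). Postn lay at 22.9% to 39.7%, Col1a1 at 18.8% to 33.8% and Thy1 at 10.9% to 17.5%. A place above the upper quartile was thus not particular to Pdgfra. Positions are descriptions, since the gap between the lines chose the genes.

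**Figure D3:**
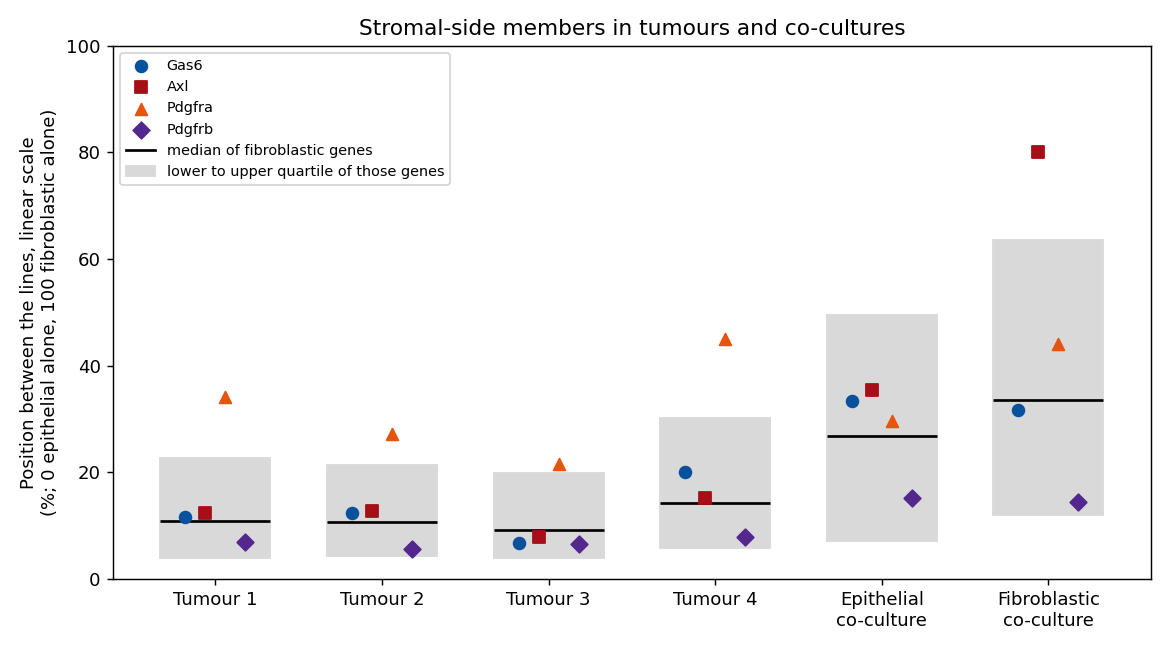
Position of Gas6, Axl, Pdgfra and Pdgfrb between the epithelial line (0%) and the fibroblastic line (100%) on the linear scale, for 4 tumours and 2 co-culture arrays. The black line is the median and the grey box the lower to upper quartile of the 531 genes with the same gap. Pdgfra lies above the box in every tumour (21.6% to 44.9%), and Axl reaches 80.1% on the fibroblastic co-culture array.

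On the array labelled epithelial co-culture, the receptors Axl and Pdgfrb were higher than in the epithelial line alone, Pdgfrb by 1 of its 3 probe sets. Axl rose by 3.95 (SE 0.50, limma adjusted p = 0.00266) and Pdgfrb by 3.43 (SE 0.53, limma adjusted p = 0.00727), 2 of 9 members higher and 0 lower. By the mean of its probe sets Pdgfrb differed by 1.88 (adjusted p = 0.0802). Over all genes 4.87% were higher and 2.37% lower, 7.24% in either direction. Gas6 differed by 1.96 (SE 0.53, adjusted p = 0.0673) and Pdgfra by 2.78 (SE 0.88, adjusted p = 0.104), both with the co-culture value above all 3 epithelial arrays. Pdgfra was called without fibroblastic array 1 (2.78, adjusted p = 0.0405). In the same comparison 6 of 7 fibroblastic markers rose, but unevenly. On the linear scale between the lines Vim lay at 113% and Thy1 at 107%, but Postn at 10.7% and Acta2 at 2.08%. The part of fibroblastic cells in the member values was not tested.

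On the array labelled fibroblastic co-culture, Pdgfrb was lower than in the fibroblastic line alone by limma, with a difference of -2.60 (SE 0.51, adjusted p = 0.0194). It was the 1 member called of 9, where 4.78% of all genes were higher and 3.63% lower, 8.41% in either direction. Axl, in contrast, was 10.87 there against 10.98 to 11.33 in the line alone, a difference of -0.30 (SE 0.49, adjusted p = 0.797). Gas6 differed by -1.29 (SE 0.51, adjusted p = 0.198), Pdgfra by -0.78 (SE 0.85, adjusted p = 0.682), Hgf by -1.01 (adjusted p = 0.282) and Met by 0.65 (SE 0.37, adjusted p = 0.388). In this comparison all 6 epithelial markers rose and 2 of 7 fibroblastic markers fell. Both comparisons rest on 1 co-culture array, which is assumed to vary like the replicated groups.

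Between the co-culture arrays 0 of 9 members were called by limma, and 0 had an unadjusted p under 0.05. Over all genes 1 was called (0.00703%) and 199 had an unadjusted p under 0.05. The largest member difference was Axl, 9.76 on the epithelial and 10.87 on the fibroblastic co-culture array (-1.12, SE 0.62, unadjusted p = 0.108). The signed difference from its own line was higher on the epithelial than on the fibroblastic co-culture array in 3 members: Pdgfrb by 6.04 (SE 0.74, limma adjusted p = 0.00177), Axl by 4.26 (SE 0.70, adjusted p = 0.00761) and Gas6 by 3.25 (SE 0.74, adjusted p = 0.0323), where 4.66% of all genes were called higher and 3.76% lower, 8.43% in either direction. Pdgfrb and Gas6 differed from their line in opposite directions on the arrays, by 3.43 on the epithelial and -2.60 on the fibroblastic one for Pdgfrb, and by 1.96 and -1.29 for Gas6. The quantity equals the difference between the co-culture arrays minus that between the lines grown alone. Gas6 and Pdgfrb differed by 0.06 and 0.08 between the co-culture arrays, so for them it nearly restates the gap between the lines (-3.19 and -5.96) with its sign turned. For Axl too the gap between the lines (-5.37) was the larger part, beside the -1.12. The Gas6 call was lost without fibroblastic array 2 (adjusted p = 0.0546) or epithelial array 3 (adjusted p = 0.0515). Pdgfra was called without fibroblastic array 1 (4.03, adjusted p = 0.0307), against 3.56 (adjusted p = 0.133) with it.

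A comparison of both co-culture arrays as 1 group was added after the data were seen. Against the epithelial line, Gas6 was higher by 1.93 (adjusted p = 0.01), Pdgfra by 3.03 (adjusted p = 0.0139), Pdgfrb by 3.39 (adjusted p = 0.000485) and Axl by 4.51 (adjusted p = 0.000175), 4 of 9 members. There limma called 8.75% of all genes higher and 9.62% lower, 18.4% in either direction. Against the fibroblastic line, Gas6 fell by 1.26 (adjusted p = 0.0429) and Pdgfrb fell by 2.57 (adjusted p = 0.00154), 2 of 9 members, where limma called 9.53% of all genes higher and 10.5% lower, 20% in either direction. On the linear scale between the lines, Axl lay at 35.5% on the epithelial and 80.1% on the fibroblastic co-culture array, and Gas6 at 33.4% and 31.6%. Pdgfra lay at 29.5% and 44.0%, and Pdgfrb at 15.1% and 14.3%. The median of the 531 genes was 26.7% and 33.5%, so the 4 members did not share 1 position on either array.

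Separate probe sets of the same gene did not give the same sizes. Gas6 and Pdgfrb each had 3. For Gas6, the probe set that stands for the gene (1383047_at) was compared with 1369735_at, whose values were 7.23 to 7.58 in tumours, 6.69 on the epithelial co-culture array, 5.78 to 6.11 on epithelial arrays, 6.52 on the fibroblastic co-culture array and 10.36 to 11.42 on fibroblastic arrays. By this probe set the co-culture arrays lay near the epithelial line, at 2.32% (epithelial) and 1.61% (fibroblastic) of the way to the fibroblastic line. The fibroblastic co-culture difference by 1369735_at was -4.22 (SE 0.39, limma adjusted p over probe sets = 0.000699), against -1.29 by 1383047_at (0.203). The third Gas6 probe set, 1392784_at, gave 0.23 for tumour minus epithelial (limma adjusted p = 0.535), and -1.37 for tumour minus fibroblastic (0.0012). All 3 were lower in tumours and in the epithelial line than in the fibroblastic line.

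The other Pdgfrb probe sets gave smaller tumour values over the epithelial line. Tumour minus epithelial was 0.36 (limma adjusted p = 0.415) by 1391394_s_at and 0.85 (0.0671) by 1379211_at, and 2.42 (0.000145) by 1370642_s_at, which stands for the gene. The epithelial co-culture difference was 0.64 (0.66), 1.56 (0.2) and 3.43 (0.00806) by the same probe sets. All 3 were lower in tumours than in the fibroblastic line, with differences of -3.67, -3.11 and -3.54. The rise of Pdgfrb over the epithelial line in tumours and on the epithelial co-culture array was called by 1 of 3 probe sets. The mean of its probe sets called the rise in tumours and not that on the epithelial co-culture array.

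**Figure D4:**
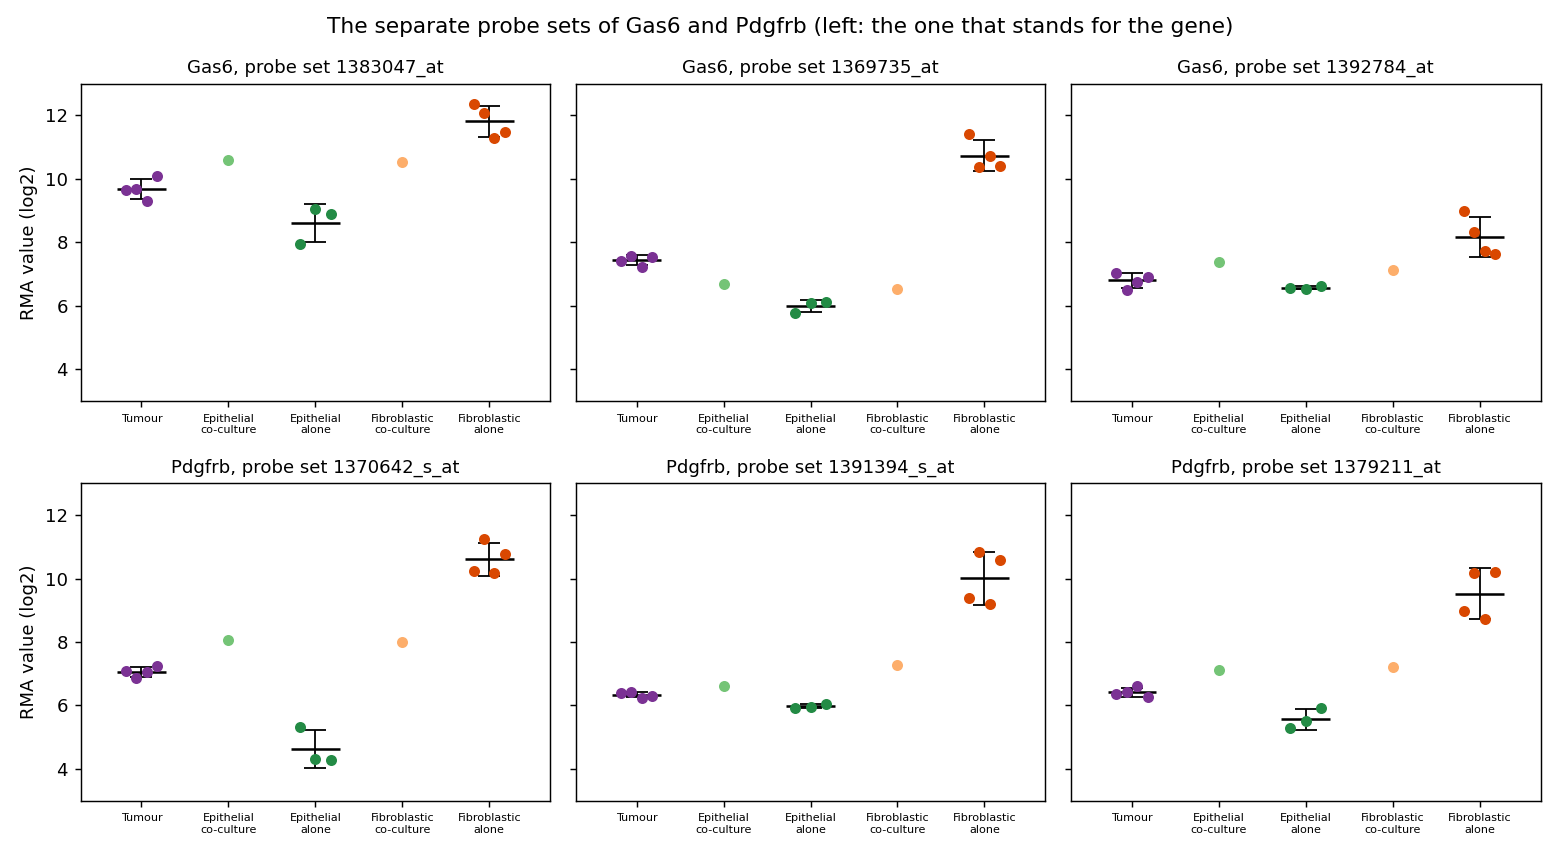
RMA values (log2) of the 3 probe sets of Gas6 (top) and of Pdgfrb (bottom) on each array, with mean and SD where a group has more than 1 array; the left panel stands for the gene. The fibroblastic co-culture array stands at 10.52 by the first Gas6 probe set and 6.52 by 1369735_at.

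Other genes of the PDGF system, 8 measured of 9 listed, followed the stromal receptors in part. In tumours against the epithelial line 4 were higher and 0 lower (all genes 18.9% and 33.2%). Sparc, a matrix protein that binds PDGF chains (5.94), and Nrp1, a co-receptor (3.82), led them. After centring the counts were 6 and 0, beside 3751 and 3431 of 14217 genes. Against the fibroblastic line 2 were higher, the protease gene Plau (1.69) and the receptor phosphatase Ptprj (1.02), and 5 were lower, led by Pdgfrl (-3.35) and Nrp1 (-1.97). There 27.3% of all genes were higher and 33.5% lower. Centring left 2 and 4 of the list, beside 5095 and 3821 of 14217 genes. Between the lines the epithelial one was higher in Plau (3.29) and lower in 4, led by Sparc (-7.37) and Nrp1 (-5.80). Of all genes 20.9% were higher and 16.6% lower there. On the epithelial co-culture array Sparc (6.57), Pdgfrl (3.09) and Lrp1 (3.04), a receptor that associates with PDGFRβ, were called higher, and 0 were lower (all genes 4.87% and 2.37%). On the fibroblastic co-culture array 1 gene was called, Nrp1, lower by limma (-5.09), where 3.63% of all genes were lower. Nrp1 had 7.09, 7.89, 7.55 and 8.20 in tumours, 4.82 on the epithelial co-culture array, 3.43, 4.44 and 3.71 in the epithelial line, 4.57 on the fibroblastic co-culture array and 9.27, 9.80, 9.67 and 9.89 in the fibroblastic line. Both co-culture arrays thus stood near the epithelial line for Nrp1. The fibroblastic markers were spread out there: on the linear scale between the lines Col1a1 lay at 45.8% on the epithelial and 61.6% on the fibroblastic co-culture array and Vim at 113% and 103%, but Acta2 at 2.08% and 15.8% and Postn at 10.7% and 7.16%.

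The HGF system, 11 measured of 12 listed, includes Spint1 and Spint2, inhibitors of the proteases that activate HGF. Both were higher in the epithelial than the fibroblastic line (5.79 and 5.65), in tumours than in the fibroblastic line (4.52 and 5.05), and on the fibroblastic co-culture array than in the fibroblastic line (4.26 and 4.58). In tumours against the epithelial line Spint1 was lower (-1.27, limma adjusted p = 0.0247), and Spint2 differed by -0.61 (adjusted p = 0.0688). St14, a protease that activates pro-HGF, was higher on that co-culture array too (3.53), and lower in tumours than in the epithelial line (-1.34). In all, 5 were higher and 1 lower in the epithelial line than in the fibroblastic line (all genes 20.9% and 16.6%). In tumours 3 were higher and 4 lower than in the epithelial line (all genes 18.9% and 33.2%). After centring the counts were 5 and 2, beside 3751 and 3431 of 14217 genes. In tumours 7 were higher and 1 lower than in the fibroblastic line (all genes 27.3% and 33.5%). Gab1, the adaptor that docks to Met, was the 1 lower gene in the epithelial line (-0.94) and in tumours (-1.49) against the fibroblastic line, and the 1 higher gene on the epithelial co-culture array (1.18). Lrig1, a negative regulator of Met, was lower in tumours than in the epithelial line (-1.45). Mst1 (2.63) and the HGF activator Hgfac (2.31), both products of hepatocytes, led the higher genes in that comparison. Mst1 was 9.10, 5.80, 7.0 and 9.27 in tumours 1 to 4, lowest in the tumour with the least albumin, as was Hgfac with 9.20, 6.59, 8.01 and 9.47.

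In the Gas6 system, 9 of 9 listed genes were measured, and Pros1, the other TAM ligand, was called in each comparison with or between the lines. Pros1 had 9.86, 8.15, 8.59 and 10.14 in tumours, 8.96 on the epithelial co-culture array, 4.83, 5.21 and 4.80 in the epithelial line, 9.23 on the fibroblastic co-culture array and 10.53, 11.19, 10.66 and 10.92 in the fibroblastic line. Pros1 was higher in tumours than in the epithelial line (4.24) and lower than in the fibroblastic line (-1.64), lower in the epithelial than the fibroblastic line (-5.88), and higher on the epithelial (4.01) and lower on the fibroblastic (-1.60) co-culture array than in the matching line. Tyro3 was lower in tumours than in the epithelial line (-1.97) and the fibroblastic line (-1.34) and higher in the epithelial than the fibroblastic line (0.63), with 4.96, 5.78, 5.52 and 5.31 in tumours against 7.31, 7.41 and 7.37 in the epithelial line and 6.85, 6.55, 6.95 and 6.56 in the fibroblastic line. Mertk, the TAM receptor of macrophages, was higher in tumours than in the fibroblastic line (1.68, limma adjusted p = 0.00997), differed by 0.00 from the epithelial line (adjusted p = 0.998), and differed by 1.67 between the epithelial and fibroblastic lines (adjusted p = 0.0522). Ggcx, the vitamin K-dependent carboxylase that Gas6 needs, was lower in the epithelial line (-2.84) and in tumours (-1.51) than in the fibroblastic line, higher on the epithelial co-culture array (1.38) and lower on the fibroblastic one (-1.18). Vkorc1, which recycles vitamin K, was higher in tumours than in the epithelial line (2.04). Among the tumours, Pros1 (8.15), Ggcx (7.95) and Vkorc1 (9.97) were each lowest in tumour 2, which had the least albumin. Tyro3 (5.78) was highest in that tumour. The part of hepatocytes in these tumour values was not tested. Socs3, a cytokine feedback inhibitor, was higher on both co-culture arrays than in the matching line (1.07 and 1.46), at 6.93 on each, and higher in tumours than in the fibroblastic line (1.89), as was Adam10, a sheddase of receptors (2.11). In all, 5 were higher and 1 lower in tumours than in the epithelial line (all genes 18.9% and 33.2%). Against the fibroblastic line 3 were higher and 4 lower in tumours (all genes 27.3% and 33.5%). After centring these counts were 5 and 1, beside 3751 and 3431 of 14217 genes, and 3 and 3, beside 5095 and 3821. In the epithelial against the fibroblastic line 1 was higher and 3 lower (all genes 20.9% and 16.6%).

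Downstream signalling genes shared by these receptors, 17 measured of 19 listed, were often lower in tumours on the deposited scale. Against each line 10 were lower and 1 was higher, where 33.2% (epithelial) and 33.5% (fibroblastic) of all genes were lower. With each array centred on its median, 5 were lower and 3 higher than in the epithelial line, and 8 lower and 3 higher than in the fibroblastic line. Of all 14217 genes, 3431 were then lower and 3751 higher than in the epithelial line. Against the fibroblastic line 3821 were lower and 5095 higher. Plcg1, a phospholipase that binds activated receptors, was lower than in the epithelial (-1.25) and the fibroblastic line (-1.67), Src was lower than in the epithelial line (-1.46), and Rasa1 was lower than in the fibroblastic line (-1.64). The higher genes were Stat3 against the epithelial line (0.56) and Nck1 against the fibroblastic line (0.47). The epithelial line was higher than the fibroblastic line in 1 (Crkl, 0.59) and lower in 2 (Stat3, -0.83, and Akt1, -0.73). Of all genes 20.9% were higher and 16.6% lower there. On either co-culture array 0 of 17 were called by limma.

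The genes most like each member were sought as the smallest root mean square difference over the 13 arrays after centring each gene, among 14216 other genes, and are a description. Axl was nearest to Bex3 and Armcx1 (0.34 each), Gas6 to P4htm (0.31) and Fkbp7 (0.35), and Pdgfrb to Ddr2 (0.34) and Slc8a1 (0.35). Pdgfra was nearest to Mitf (0.40) and Tcf4 (0.54), Met to Cldn5 (0.29) and Pstpip1 (0.30), and Pdgfa to Slc44a2 (0.33) and Magi1 (0.35). For the members with small spread, the nearest were Capn6 (0.28) and Samd4b (0.30) for Pdgfc, Calr4 (0.22) and Cmklr1 (0.24) for Pdgfd, and Ebf4 (0.19) and Sult5a1 (0.21) for Hgf.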

How the data were processed

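Total RNA was extracted with Trizol, labelled as biotinylated cRNA and hybridized, per the labels' protocols. The deposited values are log2 expression values that the authors computed by RMA, per the submitters' processing notes. The sources used here name no RMA version. A log2 scale was inferred from the values, which spanned 2.94 to 14.69 with array medians of 6.15 to 6.25, and they were not normalized again. Precision is limited by how few arrays there are, since arrays carry no read depth.

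The 31099 probe sets included 57 controls (dropped), 20826 naming 1 gene, 436 naming several and 9780 naming none. Symbols were updated by Entrez identifier for 20758. Each of the 14217 genes was read from its probe set of highest mean, which is a choice for the 4525 with several. limma 3.58.1 (R 4.3.3) was fitted to group means without trend, on 9 arrays of the lines for 5 comparisons and on 11 arrays of tumours and lines alone for 2. Promoter windows were RefSeq's, build GRCr8. Tables used pandas 2.3.3 and numpy 2.4.6 under Python 3.11.15, and plots matplotlib 3.10.9. The method was tested on simulated data.

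The members and the 11 gene lists were chosen with earlier results of these data known. Named genes are all members, the 2 most alike each, and for each pathway list the 2 largest called differences each way between replicated groups, with every called gene in co-culture, and Tyro3, Mertk, Pros1, Pdgfb and Mst1r always, of which Pdgfb and Mst1r were not analysed here. Rgs5, Alb and the single fibroblastic markers were named, and Spint1 and Spint2 in tumours against the epithelial line, after their values were seen. Alternatives were a fit of all 13 arrays, quantile normalization, centring, leaving out genes with a mean under 5.66 (the lower quartile), the mean of probe sets, every probe set on its own, trend with robust moderation, only the groups compared, each array left out, fibroblastic arrays 2 and 4 both left out, tumour 2 standing alone for the tumours, and the replicate number as a block. Both co-culture arrays as 1 group was added after the data were seen.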

Additional observations from a re-analysis of the deposited data

Results flagged for a closer look

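The signed difference between a line's co-culture array and the line grown alone differed between the epithelial and the fibroblastic line in 3 members, by a limma test of that difference. The epithelial minus fibroblastic value was 6.04 for Pdgfrb (SE 0.74, adjusted p = 0.00177), 4.26 for Axl (SE 0.70, adjusted p = 0.00761) and 3.25 for Gas6 (SE 0.74, adjusted p = 0.0323). The Gas6 call was lost without fibroblastic array 2 (adjusted p = 0.0546), without epithelial array 3 (adjusted p = 0.0515) and without fibroblastic arrays 2 and 4 (adjusted p = 0.0526). The co-culture arrays themselves differed by 0.06 for Gas6 and 0.08 for Pdgfrb, so for these genes the value nearly restates the gap between the lines grown alone (-3.19 and -5.96) with its sign turned. For Axl too that gap (-5.37) was the larger part, beside -1.12 between the co-culture arrays. Each value rests on 1 co-culture array. Both co-culture arrays held epithelial markers at 12.70 and 12.73 and fibroblastic markers at 11.72 and 11.88, and the part of this in the difference was not tested.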

How the results depend on the processing

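Of the gene-level values recomputed, 1006 kept direction and side of the threshold, 43 lost a call, 18 gained one and 19 changed sign. The signs that changed were of differences not called in the fits reported. Leaving out each array in turn gave 4 to 6 members called between the lines, 5 to 6 in tumours against the epithelial line, 4 to 6 against the fibroblastic line and 1 to 2 above or below both lines. It gave 2 to 3 for the epithelial and 1 to 1 for the fibroblastic co-culture array, 0 to 0 between the co-culture arrays and 2 to 4 for the difference in response.

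With tumour 2 as the only tumour, 2 members were called against the epithelial line (Pdgfrb and Axl) and 0 above or below both lines, and all-gene counts fell to 1958 and 3912, against 7407 and 8652. Leaving out genes under the lower quartile (mean under 5.66) removed Met, Hgf and Pdgfd, so 0 members stood above or below both lines. Without fibroblastic arrays 2 and 4 that count was 2, and 2 members were called on the fibroblastic co-culture array. On the epithelial co-culture array a fit of all 13 arrays called 4 members, the mean of probe sets 1 and both co-culture arrays as 1 group 4, with all-gene counts of 1743 and 2612 for the first and last, against 1029. On the fibroblastic co-culture array the mean of probe sets called 2 and both arrays as 1 group 2, that group with 2845 genes, against 1195. Between the co-culture arrays the all-gene count of 1 became 2 with all 13 arrays, 3 after centring, 0 without genes under that quartile or without fibroblastic arrays 2 and 4, and 0 to 4 with 1 array left out.

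In tumours against the epithelial line, quantile normalization turned Pdgfc to -0.21 and Hgf to -0.02. Against the fibroblastic line, Pdgfd ran from -0.49 to 0.08 with 1 array left out (0.08 without fibroblastic array 3) and Hgf was 0.29 without arrays 2 and 4. On the epithelial co-culture array Pdgfc was -0.05 after quantile normalization, Pdgfd -0.08 to 0.23 with 1 array left out (-0.08 without epithelial array 2) and -0.02 with both arrays as 1 group, and Hgf -0.14 with both. On the fibroblastic one Pdgfa ran from -0.47 to 0.09 with 1 array left out (0.09 without fibroblastic array 1) and was 0.06 with both arrays as 1 group, and Pdgfc was 0.01 and Pdgfra 0.17 without arrays 2 and 4. Pdgfrb between the co-culture arrays was -0.23 by the mean of probe sets. The Pdgfa difference in response was 0.02 after centring and ran from -0.42 to 0.20 with 1 array left out, at 0.12 and 0.18 without epithelial array 2 and 3, 0.20 and 0.07 without fibroblastic array 2 and 4, and 0.48 without both. The causes were not tested.

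The labels do not say whether arrays of the same replicate number were paired. Correlations of same-numbered deviations ran from -0.148 to 0.143, which cannot settle it with so few arrays. With the replicate block, 5 members were called between the lines, 6 and 6 in tumours against each line and 1 above or below both. All-gene counts were 4252, 6638 and 8405, against 5324, 7407 and 8652. No paired analysis was possible for the co-culture arrays because they carry no replicate number. A lone co-culture array, with its spread borrowed from the other groups, limits every co-culture value. Values near those of unexpressed genes limit Hgf, Pdgfd, Met and, outside fibroblastic arrays 2, 3 and 4, Pdgfc.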
